A study of Mus musculus with 18 samples.

Results

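The core circadian clock genes were followed in mouse liver through RNA-seq, ATAC-seq and H3K9me2 ChIP-seq. They are the 10 genes Arntl, Clock, Npas2, Per1, Per2, Per3, Cry1, Cry2, Dbp and Nr1d1, listed by name. No cut on a measured value was used, but earlier results of these data were known. All 10 were found among the 15572 genes of the RNA table and among the 26180 annotated genes with a curated RefSeq start on GRCm38 (mm10), to which the summits were assigned. RNA-seq compared refed JMJD1C-LKO with refed WT liver, with 2 libraries of pooled RNA in each group. ATAC-seq, which marks open chromatin, was made from 2 fasted WT, 2 refed WT and 2 refed JMJD1C-LKO livers, and ChIP-seq of H3K9me2, the dimethylated form of lysine 9 of histone H3, from 2 fasted and 2 refed WT livers, 1 mouse in each sample.

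JMJD1C-LKO mice carry floxed Jmjd1c alleles that are deleted by Cre under the albumin promoter, which acts in hepatocytes. Liver cells without Cre keep the gene. JMJD1C is a histone demethylase of the Jumonji family, and H3K9me2 is a mark of silenced chromatin. The WT mice were littermates on the C57BL/6J strain, and the methods give an age of 12 weeks. The labels describe 6 to 8 weeks of chow, an overnight fast and then 6 h of a high-carbohydrate diet, whereas the methods give 8 to 16 h for the feeding after the overnight fast. Sample titles hold only F or R for the state of the ATAC and ChIP samples, read here as fasted and refed. The clock time at which livers were taken is not given in the sources used here. Since these genes cycle over the day, feeding state and clock time cannot be told apart in the comparison of fasted with refed livers, and whether the genotypes were collected at the same time is not given either.

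The clock is a feedback loop of transcription. Arntl (also called BMAL1) pairs with Clock, or with the related Npas2, and the pair binds E-box elements to switch on the Per and Cry genes, whose proteins then return to the nucleus and shut the pair down. The same pair drives Nr1d1 (REV-ERB alpha), a nuclear receptor that represses Arntl through RORE elements, and Dbp, a transcription factor that binds D-box elements and carries the rhythm to metabolic genes. In liver the phase of this loop follows meals, and glucocorticoids act on it through Per1.

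On mm10 the curated transcripts place Arntl at chr7:113207465-113314126 (plus strand), Clock at chr5:76209868-76304792 (minus strand), Npas2 at chr1:39194272-39363240 (plus strand), Per1 at chr11:69098949-69109960 (plus strand) and Per2 at chr1:91415982-91459328 (minus strand). They place Per3 at chr4:151003655-151044665 (minus strand), Cry1 at chr10:85131700-85185054 (minus strand), Cry2 at chr2:92403646-92434069 (minus strand), Dbp at chr7:45705247-45710203 (plus strand) and Nr1d1 at chr11:98767932-98775377 (minus strand). Reference promoters show where these elements lie. The RefSeq table of promoters (GRCm38, 250 bases before to 50 after a start) matched 9 of the 10 genes by symbol and holds no entry for Per2. It was searched on both strands for the E-box CACGTG, the D-box in the forms TTATGTAA and TTACGTAA, the cAMP response element TGACGTCA and the RORE. An E-box lay 60 to 55 bases before the Cry1 start and 166 to 161 bases before the upstream curated Per1 start, against 7.15% of all 32851 promoters. Per3 held 2 D-boxes, at 205 to 198 and 158 to 151 bases before its start, where 1.06% of promoters hold any. A RORE match lay 26 to 36 bases after the downstream curated start of Arntl (0.384% of promoters). No cAMP response element was in these windows (1.79% of promoters), which says only that these letters are absent from them. The upstream 250 bases of the 3 promoters with an E-box or D-box are shown because their genes changed or held an ATAC summit, 5′ to 3′ on the strand of the gene with the element in capitals.
Per1, chr11:69098699-69098948, plus strand: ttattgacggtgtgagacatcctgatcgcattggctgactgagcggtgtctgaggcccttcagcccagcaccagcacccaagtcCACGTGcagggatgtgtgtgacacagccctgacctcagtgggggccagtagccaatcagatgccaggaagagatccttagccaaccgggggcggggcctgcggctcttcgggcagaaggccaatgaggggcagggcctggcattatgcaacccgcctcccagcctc
Cry1, chr10:85185055-85185304, minus strand: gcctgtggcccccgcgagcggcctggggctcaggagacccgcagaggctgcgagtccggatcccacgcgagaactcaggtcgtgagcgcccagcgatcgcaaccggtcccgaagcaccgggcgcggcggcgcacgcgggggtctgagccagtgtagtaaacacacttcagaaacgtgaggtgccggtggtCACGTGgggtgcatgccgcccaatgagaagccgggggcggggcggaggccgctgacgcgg
Per3, chr4:151044666-151044915, minus strand: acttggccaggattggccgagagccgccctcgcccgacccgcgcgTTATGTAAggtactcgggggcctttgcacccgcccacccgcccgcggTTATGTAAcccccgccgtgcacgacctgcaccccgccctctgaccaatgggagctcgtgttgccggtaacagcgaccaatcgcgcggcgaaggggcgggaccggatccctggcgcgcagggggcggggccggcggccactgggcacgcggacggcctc

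The fourth stretch is the open region before Dbp, the gene with an ATAC summit in every WT liver. These 300 bases lie in front of the Dbp start at position 45705247 and hold all 4 WT summits. The capitals mark a RORE match at 45704895 to 45704905, the only match in it to the searched elements. Of 20998 windows of 300 bases centred on the WT ATAC summits, 0.224% held a RORE match. An E-box was in 4.31% of them, a D-box in 0.676% and a cAMP response element in 1.2%. The Dbp stretch is not centred on a summit but between the fasted and refed summits, so these shares are not for a like window.
Dbp, chr7:45704879-45705178, plus strand: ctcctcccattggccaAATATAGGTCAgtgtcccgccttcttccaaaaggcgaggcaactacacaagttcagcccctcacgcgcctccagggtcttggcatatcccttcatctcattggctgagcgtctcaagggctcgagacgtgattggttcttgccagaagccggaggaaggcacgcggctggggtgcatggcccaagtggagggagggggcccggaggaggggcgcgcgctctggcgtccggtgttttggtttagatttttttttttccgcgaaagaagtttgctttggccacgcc

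Total estimated counts lay between 51265128 and 54400509 per RNA library, so Poisson counting error is small for every clock gene except Arntl and Npas2. Levels are given as counts per 1000000 (CPM) after TMM normalization, and changes as log2 fold changes of JMJD1C-LKO over WT from edgeR's quasi-likelihood test, with adjusted p over the 14151 genes tested. The JMJD1C-LKO libraries differed more from each other than the WT libraries did, with a chi-square per gene of 32.8 against 12.9, and JMJD1C-LKO replicate 2 lay further from WT than replicate 1 in most lists below. The count of Jmjd1c was 22 and 22.8 CPM in WT and 20 and 20.5 in the libraries labelled JMJD1C-LKO, a log2 change of −0.14 ± 0.08 (SE; adjusted p = 0.233). It sums the reads of the whole gene, cells without Cre included, and the deleted exons are not given in the sources used here. Why the count changed so little was not tested. These counts do not check the labels, and every direction below is between libraries as labelled. Because the RNA is pooled from mice whose number per library is not given, p-values measure the spread between pools. In bulk liver, fewer cells of a type and less RNA per cell cannot be told apart.

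In refed JMJD1C-LKO liver the clock genes split. Per2, Per3, Dbp and Nr1d1 fell by 22.8% to 28.1%, Per1 was higher, and Arntl, Clock, Cry1 and Cry2 did not pass the test. Thus 5 of the 9 members tested were called, 1 higher and 4 lower, where 28.0% of all genes were called, 14.6% higher and 13.4% lower. Npas2 was too low to be tested. In 7 of these 9 genes the 2 libraries of each group did not overlap, a separation that 67.5% of all genes tested also showed. The plot of CPM by library gives each library's value.

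**Figure D1:**
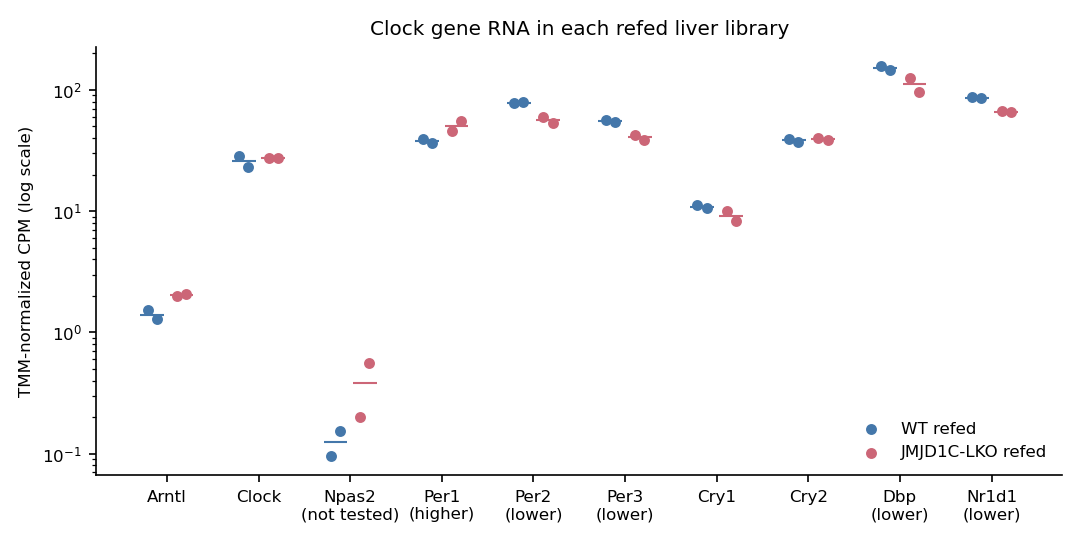
TMM-normalized CPM (y axis, log scale) of the 10 clock genes (x axis) in the 2 WT refed and 2 JMJD1C-LKO refed liver RNA libraries; points are libraries, replicate 1 to the left, and short lines are means. Per2, Per3, Dbp and Nr1d1 sit lower and Per1 higher in both JMJD1C-LKO libraries, while Clock and Cry2 overlap.

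Among the repressors, the Period genes moved in opposite directions. Per2 measured 78.1 and 78.9 CPM in the WT libraries and 59.4 and 53.5 in the JMJD1C-LKO libraries. Both JMJD1C-LKO values lay well below both WT values, and the change was −0.48 ± 0.08 on the log2 scale (SE; edgeR adjusted p = 0.0031). Per3 gave 56.7 and 54.5 CPM in WT and 42.6 and 38.5 in JMJD1C-LKO, with a change of −0.46 ± 0.08 (adjusted p = 0.0041). Per1, a Period gene that glucocorticoids induce, gave 39.5 and 36.7 CPM in WT and 45.4 and 55.4 in JMJD1C-LKO. Its change was 0.40 ± 0.10 (adjusted p = 0.018), and replicate 2 moved further than replicate 1. As a level per transcript length, scaled to the same total in each library, the ratio of Per2 to Per1 was 1.58 and 1.72 in WT and 1.05 and 0.771 in JMJD1C-LKO, so the order of Per2 and Per1 turned in JMJD1C-LKO replicate 2.

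The Cryptochromes, which partner the Period proteins, did not pass the test. Cry1 gave 11.2 and 10.6 CPM in WT and 9.98 and 8.31 in JMJD1C-LKO, with a log2 change of −0.26 ± 0.13 (adjusted p = 0.163). Its groups did not overlap, but the gap between them was smaller than that between the JMJD1C-LKO libraries. Cry2 gave 39.5 and 37.5 CPM in WT and 40.0 and 38.9 in JMJD1C-LKO, a log2 change of 0.04 ± 0.08. Its groups overlapped, with a standard error as small as that of Per2 (adjusted p = 0.770).

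Both members that act through D-box and RORE elements were lower. Dbp was the most abundant member, with 156 and 146 CPM in WT and 126 and 96.2 in JMJD1C-LKO. The groups were apart, although the gap between the JMJD1C-LKO libraries exceeded that between their replicate 1 and WT, and the change was −0.44 ± 0.12 (adjusted p = 0.020). Nr1d1 had the tightest values, 86.6 and 84.9 CPM in WT against 66.7 and 65.7 in JMJD1C-LKO, and fell by 0.37 ± 0.07 on the log2 scale (adjusted p = 0.0062). Both genes overlap a gene on the opposite strand, and whether the counting used strand is not given in the sources used here, so reads of such neighbours may not be told apart. Thra, which encodes a thyroid hormone receptor and overlaps Nr1d1, had a log2 change of 0.02 ± 0.11. Sphk2, a sphingosine kinase gene that overlaps Dbp, moved the other way, from 46.1 and 43.1 CPM in WT to 59.4 and 64.3 in JMJD1C-LKO (log2 change 0.47 ± 0.08, adjusted p = 0.0033). D930015M05Rik, which overlaps Cry2, gave 0.607 to 1.02 CPM and a log2 change of −0.61 ± 0.33 (adjusted p = 0.19).

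The activators showed no called change. Clock gave 28.5 and 23.1 CPM in WT and 27.3 and 27.5 in JMJD1C-LKO, so its groups overlapped (log2 change 0.09 ± 0.11). Arntl was low in all libraries, at 1.52 and 1.28 CPM in WT and 2.0 and 2.09 in JMJD1C-LKO, from 67 to 115 counts per library. Its log2 change of 0.54 ± 0.24 was the largest in size among the 9 members tested, but at this depth it did not pass (adjusted p = 0.124). Npas2 had 5 and 8 counts in WT and 10 and 31 in JMJD1C-LKO, and its highest library held more than the other 3 together.

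Compared per transcript length, the members spanned a wide range of levels in WT liver. Dbp led with 154 ± 4.60 TPM, a length-scaled level in transcripts per 1000000 (SD, n = 2), followed by Nr1d1 with 53.0 ± 0.138, Per2 with 23.0 ± 0.535, Cry2 with 16.4 ± 0.319, Per3 with 15.8 ± 0.180 and Per1 with 14.0 ± 0.495. Cry1, at 6.19 ± 0.155, and Clock, at 4.54 ± 0.590, lay below these, Arntl measured 0.860 ± 0.0356, and Npas2 was last with 0.0512 ± 0.0173. Each gene's lower WT library stood above the higher library of the next gene in this order, the narrowest step being from Cry2 to Per3. In JMJD1C-LKO, Per1 (18.2 ± 3.18), Cry2 (16.5 ± 0.250) and Per2 (16.2 ± 0.653) no longer separated, and Per3 fell below them at 11.3 ± 0.424. The ratio of Nr1d1 to Arntl, a target and repressor over the gene it represses, was 59.7 and 63.5 in WT and 34.6 and 31.8 in JMJD1C-LKO. It rests in part on the low counts of Arntl, 67 to 115 per library, whose own change did not pass the test.

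These calls rest on small groups. With upper-quartile scaling 65.4% of all calls were higher, against 52.2% here, and the same 5 clock genes were called in the same directions. Without WT replicate 1, Per2 alone kept its call (adjusted p = 0.0395), and without WT replicate 2 Per2 and Per3 did. Per1 also lost its call without JMJD1C-LKO replicate 2 (log2 change 0.25, adjusted p = 0.059), and Cry1 gained 1 without JMJD1C-LKO replicate 1 (−0.40, adjusted p = 0.031). In a fit to transcripts instead of genes, where 3.50% of 22296 transcripts were called, 0 of the 16 clock transcripts tested passed in edgeR, while 6 had an unadjusted p under 0.05. Per2, Cry1, Cry2, Dbp and Nr1d1 have a single transcript there, with the same counts as the gene. For these genes only the fit and the adjustment differed.

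Of 11 other clock transcription factors tested, 1 was higher and 2 were lower, a share near the 28.0% called over all genes, with a median log2 change of −0.12 against 0.01 over all genes. Ciart, a repressor of the Arntl and Clock pair, rose from 21.6 and 20.4 CPM to 31.4 and 32.2 (log2 change 0.60 ± 0.08, adjusted p = 0.0011). Klf10, a zinc finger factor under clock and glucose control, fell from 82.2 and 88.3 CPM to 47.8 and 28.9 (−1.15 ± 0.18, adjusted p = 0.0020), and Bhlhe40, which competes at E-boxes, fell from 149 and 152 CPM to 126 and 71.2 (−0.61 ± 0.20, adjusted p = 0.048).

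Among 16 kinases, ubiquitin ligases and partners of clock proteins, 1 was higher and 2 were lower (median log2 change −0.14), a share below the 28.0% of all genes and no result about the list. Csnk1d, the casein kinase that phosphorylates Period proteins, was higher by 0.31 ± 0.08 (adjusted p = 0.0215). Ncor1, the corepressor that Nr1d1 recruits, was lower (−0.28 ± 0.08, adjusted p = 0.024), and Prkaa2, a catalytic subunit of AMP-activated kinase, was lower too (−0.60 ± 0.13, adjusted p = 0.0081). Of 14 genes known as clock outputs, 5 were higher and 4 lower, with a median of −0.03. Upp2, uridine phosphorylase, rose from 182 and 168 CPM to 486 and 520, and Noct, a rhythmic phosphatase, from 24.0 and 23.0 to 59.9 and 78.3. Lpin1, a phosphatidate phosphatase and coregulator, rose to 341 and 489 CPM from 130 and 147, and Cdkn1a, the cell cycle inhibitor p21, to 12.5 and 24.1 from 2.66 and 2.68. Alas1, the initial enzyme of heme synthesis, fell from 764 and 840 CPM to 532 and 529, and Tspan4, a tetraspanin, from 81.0 and 82.6 to 55.9 and 48.5. Changes among the outputs reached a larger size than among the clock genes themselves, in both directions, as the plot of fold changes shows.

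**Figure D2:**
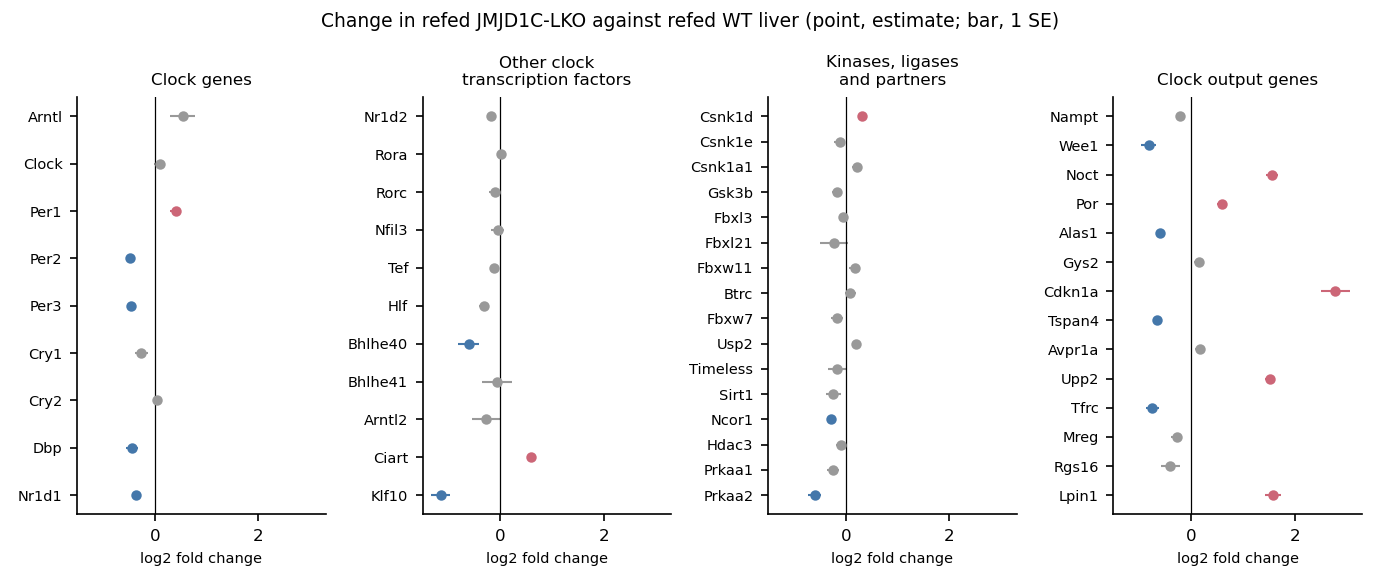
Log2 fold change of refed JMJD1C-LKO over refed WT (x axis) for the 9 clock genes tested and 3 lists of related genes, each point an edgeR estimate with 1 SE; red marks higher and blue lower at an adjusted p under 0.05, grey not called. The clock genes lie between −0.48 and 0.54, while Cdkn1a reaches 2.78 and Klf10 −1.15.

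Other gene groups moved with genotype in the same libraries. Over all genes tested, 14.6% were called higher and 13.4% lower. Glucocorticoid-induced genes were higher in 9 of 10 cases, all but Dusp1, with a median log2 change of 1.08 and a summed level of 1521 to 1659 CPM in WT against 3820 and 5026 in JMJD1C-LKO. Tat rose by 2.15 ± 0.16 on the log2 scale, the metallothionein Mt2 by 2.77 ± 0.14 and Fkbp5 by 0.80 ± 0.10. Of 10 heat shock genes, which also follow body temperature, 2 were higher and 4 lower (median −0.20). Per1 is itself a target of the glucocorticoid receptor, and the part of these groups in the clock values was not tested.

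Several markers of other liver cells were higher as well, where 14.6% of all genes tested were called higher. All 6 Kupffer and macrophage markers passed, with summed levels of 182 and 185 CPM in WT and 340 and 485 in JMJD1C-LKO, and so did 5 of 6 endothelial markers (96.9 and 97.9 against 131 and 173 CPM), all but Kdr. Hepatocyte markers summed to 113340 and 110397 CPM in WT and 113565 and 101253 in JMJD1C-LKO, with Cps1 and Tat higher of 6. Among T and B cell markers Cd3e and Cd4 were higher of 7, in sums of 3.16 to 8.82 CPM, and among stellate markers Col1a1 of 6 (162 to 210 CPM). Cholangiocyte markers gave 0 calls of 5 in edgeR (25.7 to 29.7 CPM), and Alas2 was higher of 3 blood markers, whose sum was 615 and 336 CPM in WT and 542 and 530 in JMJD1C-LKO. Of the pancreas markers only Cela1 was in the table, and it was higher, at 5.12 to 5.30 CPM in WT and 8.14 to 8.18 in JMJD1C-LKO. No marker in the table was at 0 in all libraries. JMJD1C-LKO replicate 2 had the larger departure in the glucocorticoid, Kupffer and endothelial sums, as in Per1, Per2, Per3 and Dbp, and the part of cell composition in the clock values was not tested.

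**Figure D3:**
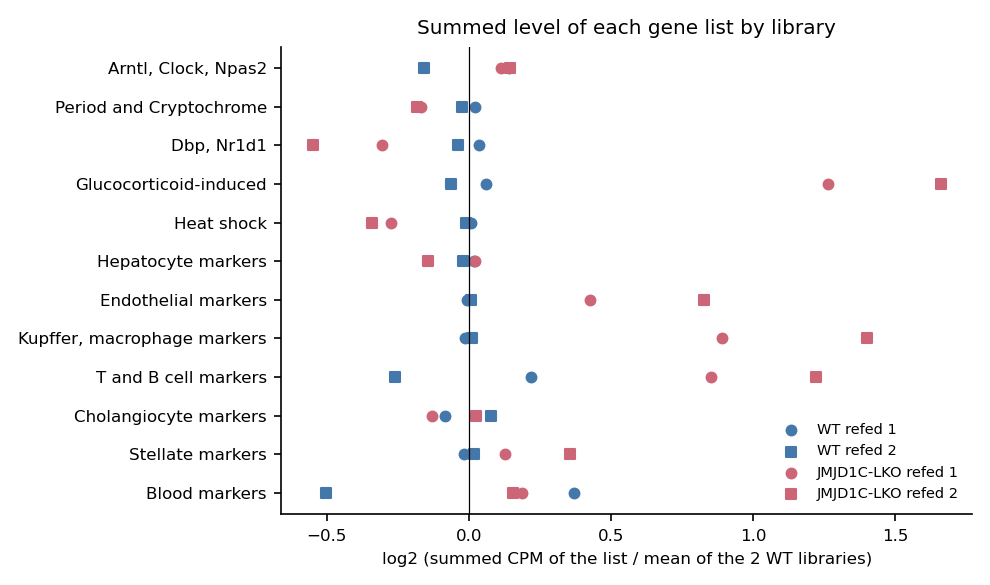
Summed CPM of each gene list in a library as log2 of its ratio to the mean of the 2 WT libraries (x axis), for 3 groups of clock genes, 2 response lists and 7 marker lists; blue, WT refed, red, JMJD1C-LKO refed, circles replicate 1 and squares replicate 2. The sum of Dbp and Nr1d1 is lower and that of glucocorticoid-induced genes and Kupffer markers higher in both JMJD1C-LKO libraries, each further in replicate 2.

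Chromatin was read from summits, the highest points of the MACS2 peaks that the authors called in each liver. A gene was counted where a summit lay within 1000 bp on either side of a curated start. The lists hold positions and scores but no read counts, so depth is unknown, and a missing summit says only that none was called. The lists differed widely in length. ATAC lists held 3119 to 7632 summits in WT and 1450 and 825 in the JMJD1C-LKO livers. H3K9me2 lists held 7690 and 13456 summits (fasted) and 1297 and 9929 summits (refed), and refed replicate 1 stood apart, with a summit at the starts of 61 genes where replicate 2 had 9194. Of genes that passed the RNA filter, 51.3% carried an H3K9me2 summit in each fasted liver and 61.6% carried it in refed replicate 2, against 4.31% and 5.50% of the other annotated genes. Summits at the starts of expressed genes go against what is known of a mark of silenced chromatin, and the identity of the antibody and samples was not tested, so summits are called H3K9me2 below only as the labels name them. Refed H3K9me2 values are given with both livers and with replicate 2 alone, and with 2 livers a group no exact test can pass, and none was made.

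In WT liver 5 clock genes had an open start in at least 1 liver, and in JMJD1C-LKO liver none was called. Fasted replicate 1 had summits at Per2, Cry1 and Dbp, and fasted replicate 2 at Arntl, Per2 and Dbp. Refed replicate 1 had them at Arntl, Per2, Per3, Cry1 and Dbp, and refed replicate 2 at Arntl and Dbp. The genes with a summit in both livers were Per2 and Dbp in fasted WT (4.36% of all genes) and Arntl and Dbp in refed WT (4.78%). In either liver, 4 members had a summit in fasted WT (13.1% of genes) and 5 in refed WT (11.4%). The JMJD1C-LKO count of 0 stands beside 0.397% of all genes in both livers and 4.55% in either, shares at which few of any 10 genes would be called. With the 825 strongest summits of each liver, the length of the shortest list, the WT counts in both livers were 0 as well, and at a score of at least 5 the fasted WT count was 0 and the refed count 2.

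Clock, Npas2, Cry2 and Nr1d1 had no ATAC summit within the window in any liver, although Nr1d1 was the most abundant member after Dbp on the length-scaled level. Its nearest ATAC summit in any liver lay 11613 bp upstream, in fasted replicate 1. Among genes that passed the RNA filter, 7.36% had a summit in both fasted and 8.07% in both refed livers, so most expressed genes were also without a called open start.

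All 13 member summits lay upstream of the start, at 53 to 340 bp. Arntl had its summit 257 bp upstream in fasted replicate 2, and closer to the start in both refed livers, 161 bp upstream in replicate 1. Ranked by score it was 717 of 7632, 947 of 5027 and 679 of 3119 in these lists. Per2 had it 150 and 53 bp upstream in fasted liver and 197 bp upstream in refed replicate 1. Cry1 gave 172 bp in fasted and 161 bp in refed replicate 1, in front of the E-box shown above, and Per3 gave 225 bp in refed replicate 1, next to its D-boxes. Over all genes, 58.9% to 76.4% of the nearest summits in WT livers were upstream, with a median offset between −125 and −80 bp.

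Dbp was the only member with a summit in all 4 WT livers, which 709 genes showed (2.71%). Its summit lay 102 and 97 bp upstream in fasted liver and 340 and 336 bp upstream in refed liver. The livers of a state lay close together, and the refed position was 238.5 bp further out, beside the RORE match that lies 352 to 342 bases before the start. The median shift of the 709 genes between states was 43.0 bp, and 4.09% of them shifted by at least as much as Dbp. With both pairs of livers within 10 bp of each other, 3 of 21 genes did, the other two being Fam76b and Sptlc2, all chosen after their values were seen. The 300 bases printed for Dbp hold both positions, and the change was not tested.

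Per1 had no ATAC summit at its curated starts, yet its predicted RefSeq transcripts begin further upstream. Near the outermost predicted start, at position 69095108 of chromosome 11 and 3841 bp before the curated one, summits lay 37 bp downstream in fasted replicate 2, 92 bp upstream in refed replicate 1 and 7 bp downstream in refed replicate 2. With predicted starts admitted, refed WT thus had 3 members with a summit in both livers, Arntl, Per1 and Dbp (4.92% of all genes). JMJD1C-LKO still had 0, where only 0.405% of all genes had a summit in both livers. The counted RNA transcripts of Per1 begin at the curated starts, so its RNA values do not tell the promoters apart.

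**Figure D4:**
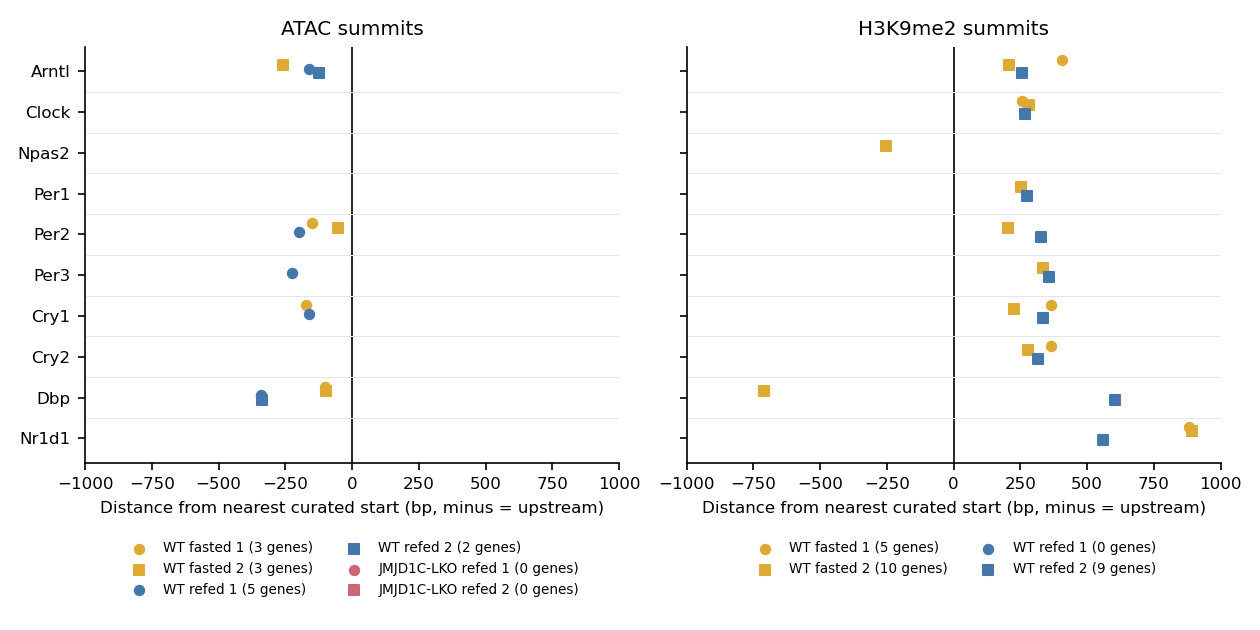
Distance of the nearest ATAC (left) and H3K9me2 (right) summit within 1000 bp of a curated start (x axis, bp, minus is upstream) for the 10 clock genes (y axis); yellow, fasted WT, blue, refed WT, red, refed JMJD1C-LKO, circles replicate 1 and squares replicate 2. ATAC summits all lie upstream and are missing in JMJD1C-LKO, and H3K9me2 summits lie downstream but for Npas2 and Dbp in fasted replicate 2.

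The samples labelled H3K9me2 had summits at each of the clock genes in at least 1 liver. In the fasted livers, replicate 1 had a summit at 5 members, Arntl, Clock, Cry1, Cry2 and Nr1d1, and replicate 2 at all 10. In both livers this left 5 members, where 29.1% of all genes had a summit, and in either liver 10 (42.9%). Among genes that passed the RNA filter these shares were 51.3% in both fasted livers and 74.3% in either. Refed replicate 1 had 0 members and refed replicate 2 had 9, all but Npas2. The count in both refed livers was therefore 0 (0.0420% of genes) and in either liver 9 (35.3%). For genes past the RNA filter, the share in either refed liver was 61.6%. Of the members, 9 passed the RNA filter, and Npas2, which did not, had a summit in only 1 liver.

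The strongest of them stood at Nr1d1. Its summit ranked 11 of 7690 in fasted replicate 1, 74 of 13456 in fasted replicate 2 and 164 of 9929 in refed replicate 2, where rank 1 has the highest score. It lay 880 and 892 bp downstream of the start in the fasted livers and 560 bp downstream in refed replicate 2. No other member came near these ranks at a curated start, and with the 1297 strongest summits of each liver Nr1d1 alone was left in both fasted livers. Clock ranked 681, 2714 and 1029 in the same 3 livers, with summits 255, 283 and 266 bp downstream. Cry1 and Cry2 ranked 2435 to 5850, at 225 to 366 bp downstream. Arntl lay at rank 2824 and 6116 in fasted liver and 9016 in refed replicate 2, near the end of that list.

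The Period genes had a summit in fasted replicate 2 and refed replicate 2 only. It lay 254 and 274 bp downstream at Per1, 204 and 328 bp at Per2 and 334 and 358 bp at Per3. At the predicted upstream start of Per1, by contrast, every liver but refed replicate 1 had a summit, 472 and 457 bp downstream in fasted and 483 bp downstream in refed replicate 2, and there it ranked 46 of 7690, 854 of 13456 and 2456 of 9929. Dbp likewise had summits at a start that is predicted and not curated. Near a predicted start 1359 bp into the gene, summits lay 58 and 20 bp downstream in the fasted livers, the latter at rank 281 of 13456. Closest to the curated start were summits 710 bp upstream in fasted replicate 2 and 606 bp downstream in refed replicate 2. With predicted starts admitted, 7 members had a summit in both fasted livers, where 29.7% of all genes did.

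Across genes the nearest H3K9me2 summit lay 222 to 258 bp downstream of the start at the median in the 3 longer lists, with 17.2% to 18.1% upstream. The members' medians were 366 bp in fasted replicate 1, 240 bp in fasted replicate 2 and 328 bp in refed replicate 2. The upper quartiles over all genes there were 334, 293 and 329 bp. Nr1d1 lay the furthest downstream in the fasted livers and Dbp, at 606 bp, in refed replicate 2. Npas2 had its only summit 254 bp upstream, at rank 12297 of 13456. H3K9me2 in JMJD1C-LKO liver was not analysed here, so these summits at clock genes cannot be set beside the RNA of the knockout, and for Per2, Per3, Dbp and Nr1d1, lower as RNA, the chromatin values of the knockout are the missing ATAC summits alone. Arntl and Dbp were the members with a summit in both refed WT livers and neither JMJD1C-LKO liver. How many of all genes share this pattern was not counted. Over all genes, 4.78% had a summit in both refed WT livers and 4.55% in either JMJD1C-LKO liver. The JMJD1C-LKO lists were shorter. Dbp was lower as RNA, and Arntl did not pass the test.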

How the data were processed

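Groups held 2 samples each, single livers for ATAC-seq and ChIP-seq and libraries of pooled RNA for RNA-seq, with conditions taken from titles and genotypes. The RNA table holds estimated counts, deposited by the authors without scaling for each RefSeq transcript (mm10), of which 65.5% to 65.9% have a fraction. The submitters' processing notes name HISAT2, Partek and DESeq2 3.5, and the counting method and strand are not given in the sources used here. A further deposited table of the authors' own p-values, FDR and fold changes was not used. For ATAC-seq (BWA) and ChIP-seq (Bowtie2, with the matched input) the authors called peaks per sample with MACS2 2.1.1 with q under 0.05 and an enrichment of 2-fold (ATAC) or 2.5-fold (ChIP) or more, and deposited summits with the −log10 of the q-value; these scores were compared by rank within a liver only.

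Counts were summed per gene, rounded and tested in edgeR 4.0.16 (R 4.3.3; quasi-likelihood F test, TMM, filterByExpr, no block, Benjamini-Hochberg over 14151 genes, adjusted p under 0.05), a script tested on simulated data. DESeq2 1.42.0 was an alternative. Of 24994 transcripts, 24682 matched RefSeq GRCm38.p6 by identifier, whose lengths gave the length-scaled levels. Every summit lay within the chromosome lengths of that build. The SE of a log2 change came from the edgeR fit, which includes the spread between libraries.

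Members and lists were chosen with earlier results of these data known. Named were the 10 members, Jmjd1c, the genes overlapping a member or starting within 1000 bp of its start (Gm7467, near Clock, is not in the RNA table), and of other clock lists the genes passing the test, at most the 6 with the smallest p. Glucocorticoid, heat shock and cell type lists gave counts with examples. Alternatives were other normalizations, DESeq2, no filter, a replicate block, a stricter threshold, transcripts, left-out libraries, and other windows, starts and summit sets.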

Additional observations from a re-analysis of the deposited data

How the results depend on the processing

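The 5 clock genes called, 1 higher and 4 lower, were the same genes with RLE and upper-quartile scaling, with DESeq2, without the filter on low counts and with a replicate block, which called 2211 genes higher and 1996 lower and 7 instead of 6 other clock genes. Libraries with the same replicate number showed no shared shift (correlation of deviations −0.005). This cannot tell how the samples were matched, which is not given in the sources used here. Upper-quartile scaling made 65.4% of all calls higher, against 52.2%. At an adjusted p under 0.01, 1050 genes were higher, 772 lower, and 3 clock genes (Per2, Per3 and Nr1d1) and 3 other clock genes were called. Leaving out 1 library gave 828 to 2614 genes higher, 512 to 2557 lower, 1 to 6 clock genes and 2 to 9 other clock genes; both WT libraries lowered the counts, since the spread then comes from the JMJD1C-LKO libraries, which differ more. Of 99 fold changes of members under alternatives 80 kept call and direction, 15 lost and 1 gained a call, and 3 changed sign: Clock, from −0.05 without WT replicate 2 to 0.25 without WT replicate 1 and −0.21 in its most abundant transcript, and Cry2, from −0.00053 without WT replicate 2 to 0.07 without WT replicate 1, the cause of which was not tested.

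ATAC members with a summit in both fasted WT livers fell from 2 to 0 at a score of at least 5 or with the 825 strongest summits of each liver, and the refed count from 2 to 0 with the 825 strongest; either liver gave 4 and 5. Replicates alone gave 3 in fasted and 2 to 5 in refed WT, and JMJD1C-LKO remained at 0 under every alternative. H3K9me2 members in both fasted livers fell from 5 to 1 (Nr1d1) with the 1297 strongest summits and numbered 10 in either liver and 5 to 10 in replicates alone. In refed WT, 0 became 1 (Arntl) anywhere in the gene, 9 in either liver and 0 to 9 in replicates alone. The depth of the sample behind each summit list is unknown, which limits all absences.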
